A study of Mus musculus with 20 samples.

Results

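The comparison described here is formalin against no injection in mouse lumbar dorsal root ganglia with an intact Prdm12 gene, within animals. Its members are the 10 libraries, of 20 in the series, whose counts were deposited under a control genotype word: 5 formalin and 5 noninjected libraries from 5 of the 10 animals, 1 of each per animal. Libraries deposited under the same animal number and sex word were paired, and the title numbers give the same pairs. Titles and deposited genotype words disagree for 4 of the 10 animals. The animals titled control 2, control 3 and control 5 are control by both records. Those titled icKO 2 and icKO 3 (inducible conditional knockout) are control by the deposited word only, and animals are called by their titles below.

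The mice were adult C57Bl6 animals, 3 females (control 2, icKO 2 and icKO 3) and 2 males (control 3 and control 5), and all of them had received tamoxifen 1 month earlier. Both arms carry floxed Prdm12 alleles. By their titles, icKO 2 and icKO 3 would also carry a tamoxifen-inducible Cre recombinase, named as AdvCreERT2 in the sample labels and as Rosa26CreERT2 in the series text. The agent label is formalin for one library of each animal and noninjected for the other. The labels do not give the site or side of injection, the time from injection to dissection, or whether the ganglia of a pair came from opposite sides of 1 animal. Polyadenylated RNA of ganglia L3, L4 and L5 was sequenced from libraries without strand information, so a gene and a partner overlapping it on the other strand share reads.

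Dorsal root ganglia hold the cell bodies of sensory neurons, wrapped by satellite glia, together with Schwann cells, blood vessels, resident macrophages and a connective tissue sheath. Formalin injected into the skin activates nociceptors, the neurons that report tissue damage, and is a standard test of inflammatory pain. Atf3 and Sox11 encode transcription factors known for their induction in sensory neurons after nerve injury, and Prdm12 encodes a transcriptional regulator needed for nociceptors to form.

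The 10 libraries held 11763893 to 20076525 counts, with 24866 to 27799 genes detected. Levels are CPM, counts scaled to a common library total, after TMM scaling, a correction for library composition. Neuronal markers were high in every library: Calca, encoding the neuropeptide CGRP, ranged from 1270 to 1910 CPM, and Nefh, encoding a neurofilament of large neurons, from 1480 to 2320 CPM. The 11 genes of a central nervous system list summed to 84.2 to 142 CPM. Of the mitochondrially encoded genes, mt-Nd4l, mt-Co2, mt-Co3, mt-Atp6 and mt-Atp8 were listed at 0 in all 10 libraries. Prdm12 checked the genotype. With all usable libraries scaled together it ranged from 72.9 to 114 CPM in the 10 libraries described here and from 14.4 to 38.1 CPM in the other 9, so the ranges did not overlap. Of the animals titled icKO, icKO 2 and icKO 3 lay in the higher range with control 2, control 3 and control 5, and of those titled control, control 1 and control 4 lay in the lower range.

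In the formalin libraries 184 genes were lower and 17 were higher than in the noninjected libraries of the same animals, out of 16749 tested (edgeR quasi-likelihood test with the animal as block, Benjamini-Hochberg adjusted p under 0.05). The lower genes were 1.1% and the higher genes 0.101% of those tested, 1.2% together. These shares are the background for every list count below. Collagen, proteoglycan and contractile genes are among the 12 lower genes of smallest p, and genes for neuropeptides, a synaptic vesicle protein and cyclic AMP enzymes are among the 12 higher ones. Of the 37 gene lists of cell types and pathways used below, 23 of the lower and 4 of the higher genes were members. The changes were small: called lower genes ranged from −1.37 to −0.25 and called higher genes from 0.29 to 1.28 on the log2 scale, and the median size over the 201 was 0.45. The median log2 fold over all tested genes was 0, with 48.9% negative.

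Levels differed between animals as well as within them. Of the 201 called genes, 197 had the same sign in all 5 pairs, against 2067 of all tested genes (12.3%). By direction, 181 of the 184 were lower in all 5 pairs, beside 7.57% of all genes, and 16 of the 17 were higher in all 5, beside 4.77%. The paired test favours genes with 1 sign in these same pairs, so these counts describe the called genes only. Only 16 of the 201 had formalin and noninjected libraries whose ranges did not overlap, beside 115 genes in all (0.687%). Without the animal as block no gene was called by edgeR in either direction, and 1455 genes had an unadjusted p under 0.05 in place of 2377. The calls also leaned on 2 animals: without control 3 the test called 1 gene higher and 25 lower, and without icKO 3 it called 2 higher and 29 lower. With limma-voom and the animal as a random effect, 0 genes were called, and 1942 had an unadjusted p under 0.05.

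**Figure D1:**
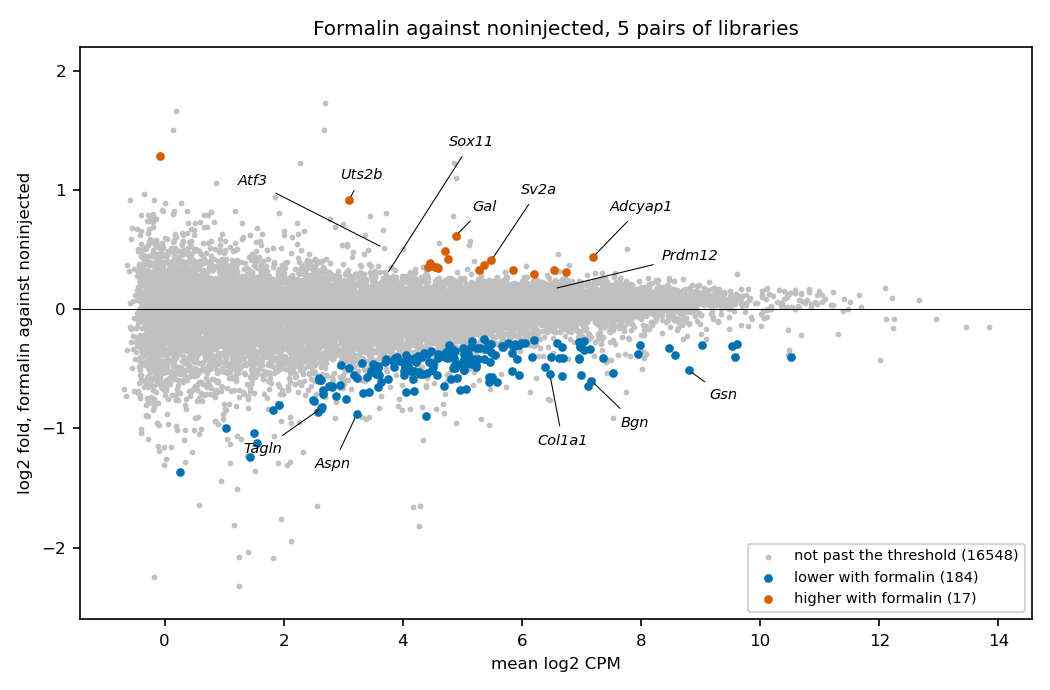
Mean level (log2 CPM, x axis) and log2 fold of formalin against noninjected (y axis) for each of the 16749 genes tested over 5 pairs. Blue points are the 184 genes called lower, orange points the 17 called higher, and grey points did not pass; Atf3, Sox11 and Prdm12 lie among the grey points, and the called genes sit mostly within 1 log2 unit of 0.

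Connective tissue genes gave the most calls of any of the 37 lists. Of 16 tested markers of fibroblasts and connective tissue, 7 fell (Col1a1, Col1a2, Col3a1, Col5a1, Col6a1, Dcn and Mfap5) and none rose, beside 1.1% of all tested genes called lower. All 16 had a negative fold, with a median of −0.53 beside 0 over all genes. Their summed level was 1640 to 2810 CPM in the formalin libraries and 1810 to 3450 CPM in the noninjected ones. It was lower with formalin in each of the 5 animals though the ranges overlap. Dcn alone, with levels given below, made up most of this sum in every library. In bulk ganglia, fewer cells of a type and less RNA per cell cannot be told apart.

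Col1a1 (ENSMUSG00000001506), encoding a chain of fibrillar type I collagen, stood at 76.5, 50.4, 53.9, 108 and 68.1 CPM in the formalin libraries of control 2, control 3, control 5, icKO 2 and icKO 3, an order kept for every gene below. The noninjected libraries held 107, 93.3, 68.2, 167 and 89.9 CPM. Every animal was lower with formalin, while icKO 2 was the highest in both groups, so that the groups overlap. The mean was 71.4 ± 23.1 CPM with formalin and 105 ± 37.5 CPM without (SD, n = 5), and the paired log2 fold was −0.55 (SE 0.07, edgeR adjusted p = 0.00362). Col1a2, its partner chain in the same collagen, went from 205, 229, 153, 325 and 179 CPM to 154, 126, 119, 216 and 131 CPM. That is a fall of 31.1% (log2 fold −0.54, SE 0.07, edgeR adjusted p = 0.00274), again in all 5 animals and with overlapping groups. Col3a1, the type III chain, fell by 0.64 on the log2 scale (SE 0.09, edgeR adjusted p = 0.00686).

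Dcn, encoding the collagen-binding proteoglycan decorin, had differences of uneven size. Its formalin libraries held 1160, 1380, 1070, 1710 and 976 CPM and its noninjected libraries 1650, 2260, 1100, 1950 and 1430 CPM. The difference was −0.71 on the log2 scale in control 3 and −0.04 in control 5, and the fold of −0.40 (SE 0.09) passed with an edgeR adjusted p of 0.0434. Other members did not pass: Pdgfra, a receptor that marks fibroblasts, had a log2 fold of −0.33 (edgeR adjusted p = 0.134), Lum a fold of −0.33 and Fn1, encoding fibronectin, a fold of −0.66 (adjusted p = 0.17 and 0.157). Pdgfra and Lum were each lower in 4 of 5 animals, with the exception in control 5 and icKO 2 respectively.

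Bgn (ENSMUSG00000031375) had the smallest p in the comparison. It encodes biglycan, a small leucine-rich proteoglycan of the extracellular matrix. Its level was 130, 83.7, 59.3, 188 and 111 CPM with formalin and 159, 145, 89.1, 272 and 192 CPM without. All 5 animals were lower with formalin, from −0.79 in control 3 and icKO 3 to −0.29 in control 2 on the log2 scale. The level fell by 34% (log2 fold −0.60, SE 0.07, edgeR adjusted p = 0.00274). In a list of small leucine-rich proteoglycans put together after the values were seen, 5 of 12 fell (Bgn, Dcn, Prelp, Aspn and Podn), with a median of −0.41. Aspn, encoding asporin, went from 8.43, 10, 10.1, 17.1 and 13.5 CPM to 7.07, 5.59, 4.44, 9.93 and 5.4 CPM, a log2 fold of −0.88 (SE 0.13, edgeR adjusted p = 0.00727).

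Several further matrix genes fell. Fbn1, encoding the microfibril protein fibrillin-1, held 40.6, 22.9, 23.4, 54.4 and 37.6 CPM with formalin and 49.3, 31.3, 34.9, 80.4 and 70.7 CPM without (log2 fold −0.57, SE 0.08, edgeR adjusted p = 0.00485). Mmp2, a secreted protease that cuts matrix proteins, held 23.9, 27.9, 20.8, 34.1 and 26.6 CPM with formalin and 36.5, 45.9, 24.4, 46.6 and 38 CPM without (log2 fold −0.51, SE 0.07, edgeR adjusted p = 0.00485). Both were lower in all 5 animals, by least in control 2 for Fbn1 and in control 5 for Mmp2. Lamb2, a laminin chain of basement membranes, fell by 0.40 on the log2 scale and was the only one of 11 laminin genes tested to pass. Over all 41 collagen chain genes tested, 7 fell and none rose, with a median of −0.17. Among 20 genes for collagen processing and crosslinking, 6 fell (Serpinh1, Pcolce, Loxl1, Rcn3, Fkbp9 and Ppic) and none rose. Among 18 matrix proteases and their inhibitors Mmp2 and Ctsk fell. These lists too were chosen with the values known.

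**Figure D2:**
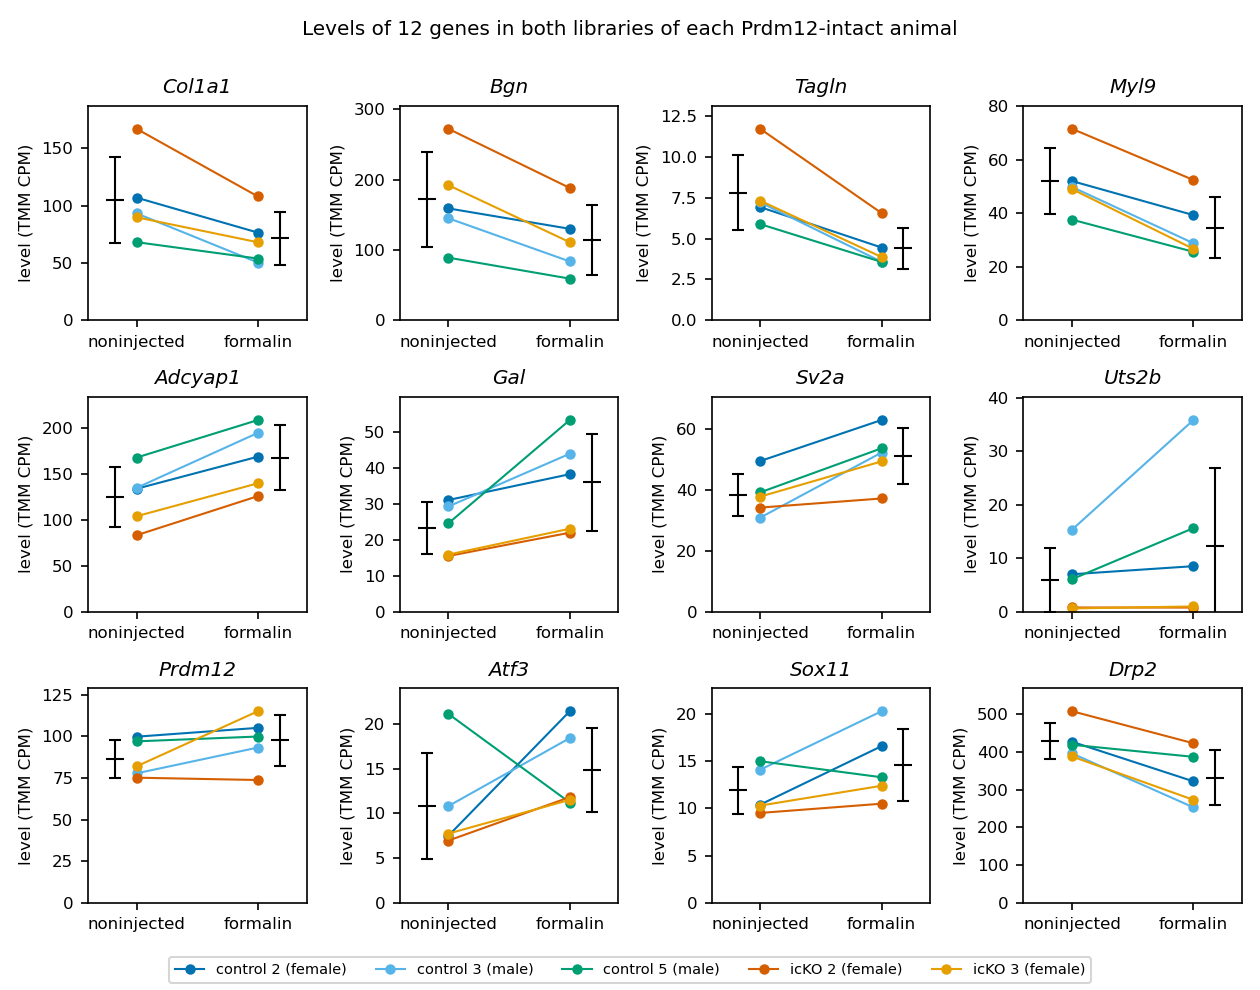
Level (CPM after TMM scaling, y axis from 0) of 12 genes in the noninjected and formalin library of each of the 5 animals, joined by a line per animal, with the mean and SD (n = 5) at each side. Every line falls for Col1a1, Bgn, Tagln, Myl9 and Drp2 and rises for Adcyap1, Gal and Sv2a; for Atf3 and Sox11 the line of control 5 falls while the others rise, and the lower SD bars of Uts2b are clipped at 0.

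Genes of the contractile apparatus fell too. Tagln, encoding the actin-binding smooth muscle protein transgelin, stood at 4.45, 3.58, 3.57, 6.55 and 3.87 CPM with formalin and at 6.92, 7.21, 5.88, 11.7 and 7.31 CPM without. Every animal was lower, and apart from icKO 2 with formalin all the formalin libraries lay under the lowest noninjected one. The fall was 43.5% (log2 fold −0.82, SE 0.12, edgeR adjusted p = 0.00485). Myl9, a myosin regulatory light chain of smooth muscle, went from 52, 49.8, 37.6, 71.5 and 49 CPM to 39.3, 28.8, 25.6, 52.4 and 26.7 CPM (log2 fold −0.61, SE 0.07, edgeR adjusted p = 0.00274). Gsn, encoding the actin-severing protein gelsolin, held 325, 366, 331, 476 and 332 CPM with formalin and 435, 581, 413, 667 and 528 CPM without (log2 fold −0.51, SE 0.06, edgeR adjusted p = 0.00274). Both genes were lower in each animal, and only the formalin library of icKO 2 reached into the noninjected range of Gsn.

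In the list of pericyte and smooth muscle markers 2 of 11 fell, beside 1.1% of all tested genes. These were Tagln and Mylk, the kinase of myosin light chains. All 11 folds were negative, with a median of −0.53. Acta2 and Myh11, the smooth muscle actin and myosin heavy chain, did not pass (log2 folds −0.95 and −0.85, SE 0.48 and 0.27, edgeR adjusted p = 0.476 and 0.263), and both were higher with formalin in control 3. The summed level of the list was 291 to 395 CPM with formalin and 317 to 520 CPM without, higher with formalin in control 2 and control 3. In a wider list of 16 contractile and cytoskeletal genes, drawn up after the values were seen, 9 fell: Myl9, Tpm2, Cald1, Smtn, Mylk, Cnn2, Tagln, Csrp1 and Myl12a.

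Several contractile genes and immediate-early genes are textbook targets of serum response factor, which binds the CArG box. This motif was chosen with the fallen genes known, and it was sought on both strands in RefSeq promoter windows (GRCm38.p6, 250 bases before to 50 after a gene's start). Some genes have several windows. At least 1 match was found for 6 of 134 genes that fell and for 187 of 12195 tested genes. By window, it was found in 9 of 180 of genes that fell (5%), in 199 of 15556 of all tested genes (1.28%) and in 0 of 21 of genes that rose. Over all 32851 windows the share was 1.63%. The motif TATAAA was found in 11.1% of the windows of fallen genes, 7.88% of those of tested genes and 13.6% of all windows, and GGGCGG in 53.9%, 58.5% and 35.7%. The 4 stretches below are shown because they hold the box, in capitals, upstream of genes that fell: the contractile genes Cnn2 (chr10:79988524-79988573, + strand) and Myl9 (chr2:156775283-156775332, + strand), the immediate-early gene Zfp36 (chr7:28379257-28379306, − strand) and the macrophage gene Mpeg1 (chr19:12460520-12460568, + strand).
Cnn2: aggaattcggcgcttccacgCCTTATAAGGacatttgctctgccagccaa
Myl9: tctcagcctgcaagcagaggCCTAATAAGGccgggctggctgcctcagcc
Zfp36: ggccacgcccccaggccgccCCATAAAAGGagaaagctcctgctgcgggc
Mpeg1: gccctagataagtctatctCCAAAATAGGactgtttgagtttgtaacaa
The CC and GG ends are set by the motif sought, and the boxes differ in the 6 inner A and T bases. Stretches were cut for 5 of the 6 fallen genes with a match, only upstream of the start and with a chromosome left out. Of the 6 stretches so cut, those of Egr2 are not shown. A match describes these letters only.

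Of 21 Schwann cell and myelin genes tested, 3 fell, Egr2 and Drp2 among them, and none rose, beside 1.1% of all tested genes called lower. In this list 19 had a negative fold and the median was −0.27. An unadjusted p under 0.05 was found for 17 of them, beside 14.2% of all tested genes. Drp2, which links the Schwann cell membrane to the basal lamina, held 322, 253, 387, 423 and 273 CPM with formalin and 427, 396, 419, 508 and 388 CPM without. All animals were lower with formalin, and only the formalin library of icKO 2 lay within the noninjected range (log2 fold −0.39, SE 0.07, edgeR adjusted p = 0.017). Egr2, the transcription factor that drives myelination, fell by 0.43 on the log2 scale (edgeR adjusted p = 0.0279). Mbp, encoding myelin basic protein, was lower in all 5 animals at −0.38 without passing (edgeR adjusted p = 0.106). Of 16 satellite glia markers none was called, and their median was −0.08.

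Among macrophage genes 3 of 22 fell, Tmem119, Mpeg1 and Fcgr3, beside 1.1% of all tested genes called lower, and 20 had a negative fold (median −0.31). Tmem119, a membrane protein known from microglia, held 4.13, 3.5, 2.22, 7.36 and 3.51 CPM with formalin and 6.61, 7.65, 4.74, 11.3 and 6.78 CPM without (log2 fold −0.87, SE 0.13, edgeR adjusted p = 0.00607). Mpeg1, a pore-forming protein of phagocytes, held 24.5, 25.5, 18.2, 31.7 and 23.1 CPM with formalin and 31.7, 37.2, 28.1, 33.6 and 38.2 CPM without (log2 fold −0.47, SE 0.09, edgeR adjusted p = 0.018). Both were lower in every animal. The general macrophage markers Csf1r and Aif1 did not pass, with log2 folds of −0.28 and −0.22 and edgeR adjusted p of 0.255 and 0.491. The macrophage list holds Apoe, which is also in the satellite glia list, so its sum is not of macrophages alone. This summed level overlapped, at 3640 to 4280 CPM with formalin and 3510 to 4850 CPM without. It was higher with formalin in icKO 2 and icKO 3, lower in control 2 and control 3, and 3720 CPM in both libraries of control 5.

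Interferon-stimulated genes gave 1 call in 29, Bst2, which tethers budding virus particles. Outside that list, Ifi27l2a, also interferon-stimulated, was among the few genes whose groups did not overlap. It held 20.6, 22.3, 16.8, 20.2 and 19.4 CPM with formalin and 24.3, 37.6, 25.2, 38.9 and 30.8 CPM without, so the highest formalin library lay under the lowest noninjected one. Its level fell by 36.1% (log2 fold −0.65, SE 0.09, edgeR adjusted p = 0.00373). All 23 antigen presentation and complement genes had a negative fold and none was called (median −0.27). Cd74, the invariant chain of class II molecules, came nearest, with a fold of −0.53 and an edgeR adjusted p of 0.054. Of 19 cytokine and inflammatory mediator genes none was called. Il1b had a fold of −0.50 and Ptgs2, the inducible prostaglandin synthase, a fold of −1.09, at mean levels of 1.42 and 0.711 CPM with formalin and 1.99 and 1.47 CPM without (edgeR adjusted p = 0.362 and 0.13). Mast cell genes gave 1 call in 7, the chymase Cma1 (log2 fold −0.75, SE 0.15, edgeR adjusted p = 0.0262), which was higher with formalin in control 5 and lower in the other 4 animals.

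Immediate-early genes are transcribed by neurons and other cells soon after stimulation. None of the 28 tested rose and 3 fell, Egr1, Egr2 and Zfp36, beside 1.1% of all tested genes called lower. The median was −0.25, with 23 negative folds. Egr1, a zinc finger transcription factor, held 17.5, 36.2, 14.6, 30.4 and 20.8 CPM with formalin and 18.8, 57.3, 25.5, 37.1 and 30.9 CPM without (log2 fold −0.49, SE 0.09, edgeR adjusted p = 0.018). Fos went from 5.47, 12.9, 9.35, 11.3 and 11.2 CPM to 5.4, 9.97, 5.25, 8.16 and 6.77 CPM and did not pass (log2 fold −0.50, SE 0.12, edgeR adjusted p = 0.0552). Both were lower in every animal, by least in control 2. Of 16 glucocorticoid-responsive genes only the kinase Sgk1 was called, at −0.33 on the log2 scale. Of 18 circadian clock genes Hlf and Bhlhe40 fell (−0.43 and −0.27).

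Other pathways were touched in part, by lists chosen after the values were seen. Of 19 retinoid genes 5 fell, among them the binding protein Crabp2, the retinoic acid hydroxylase Cyp26b1, the retinal reductase Dhrs3, and Rarres2, which encodes the chemoattractant chemerin. Cyp26b1 held 8.89, 9.62, 6.67, 13.8 and 7.28 CPM with formalin and 17.9, 16.9, 10.2, 15.3 and 12.2 CPM without, lower in all 5 animals (log2 fold −0.65, SE 0.11, edgeR adjusted p = 0.0141). Of 10 Frizzled receptors for Wnt ligands, Fzd2, Fzd4 and Fzd7 fell (log2 folds −0.44, −0.48 and −0.52). Cytoplasmic ribosomal protein genes, many of which have near-identical copies, were called no more often than genes at large. Rps24 alone of 81 was called, a share close to the 1.1% of all tested genes called lower. A negative fold was found for 75 (median −0.17). The remaining genes of the 12 smallest p on the lower side encode membrane proteins: Emp1, Cavin1, a coat protein of caveolae, and Ephb4, a venous ephrin receptor (log2 folds −0.58, −0.56 and −0.69).

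Markers of tissue around the ganglion moved with some of these groups, and their part in the falls was not tested. Adipocyte genes summed to 227 and 226 CPM in the noninjected libraries of icKO 2 and icKO 3 and to between 39.3 and 61.5 CPM in the other 8 libraries. Their median was −1.65, none of 9 was called, and the medians by animal ran from −2.73 in icKO 3 to 0.36 in control 2. Skeletal muscle genes summed to 76 to 119 CPM with formalin and 111 to 130 CPM without. This list holds Pvalb, which is also in the A-fibre list, and its median was positive in control 3 (0.60) and negative in the other animals. Tnni2, a fast troponin, was the 1 gene of 11 called (log2 fold −1.24, SE 0.20, edgeR adjusted p = 0.0104). Endothelial genes summed to 229 to 372 CPM with formalin and 253 to 410 CPM without; all 13 had a negative fold and none was called (median −0.39). No gene of these lists was at 0 in all libraries. Control 2, control 3 and control 5 had no such excess of adipocyte genes in either library.

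**Figure D3:**
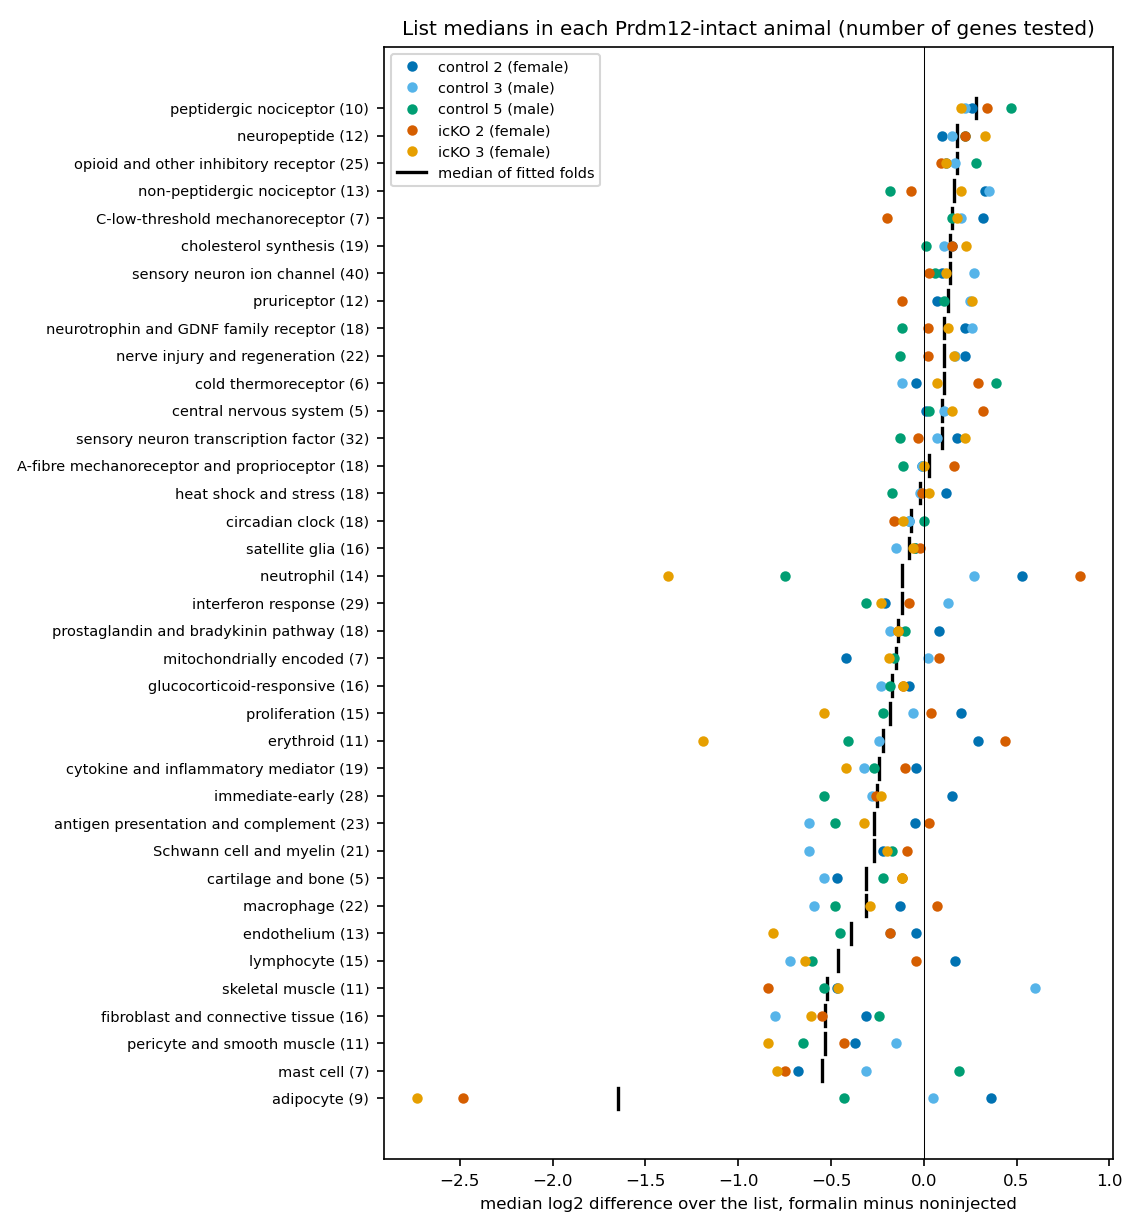
Median log2 difference, formalin minus noninjected, over the tested genes of each of 37 lists (number of genes in brackets) in each of the 5 animals, with the median of the fitted folds as a black bar. Fibroblast, pericyte and Schwann cell genes lie below 0 and peptidergic nociceptor genes above 0 in each of the 5 animals, whereas adipocyte, neutrophil and erythroid medians differ in sign between animals.

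On the higher side, the gene of smallest p was Adcyap1 (ENSMUSG00000024256), which encodes the neuropeptide PACAP. It held 169, 195, 209, 126 and 140 CPM with formalin and 134, 135, 168, 83.3 and 104 CPM without. All animals were higher with formalin, by 0.31 in control 5 to 0.60 in icKO 2 on the log2 scale, and the groups overlap because icKO 2 and icKO 3 were lower than the others in both. The rise was 35.4% (mean 168 ± 35 against 125 ± 32.6 CPM, SD, n = 5; log2 fold 0.44, SE 0.06, edgeR adjusted p = 0.00373). Gal, encoding galanin, a peptide that sensory neurons make more of after nerve injury, held 38.3, 44, 53.4, 22 and 23.1 CPM with formalin and 31.1, 29.3, 24.6, 15.5 and 15.9 CPM without. It rose in all animals, most in control 5 (1.10 on the log2 scale) and least in control 2 (0.30), with a fold of 0.62 (SE 0.10, edgeR adjusted p = 0.0134).

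Of 12 neuropeptide genes these were the 2 called, beside 0.101% of all tested genes called higher. Calca was higher in all 5 animals by a smaller step that did not pass (log2 fold 0.14, SE 0.06, edgeR adjusted p = 0.337), and Tac1, the precursor of substance P, was higher in 3 of 5 (0.25, SE 0.10, adjusted p = 0.272). Outside the list, Uts2b, encoding a urotensin-related peptide, also rose. Its libraries held 8.49, 35.8, 15.6, 0.756 and 0.967 CPM with formalin and 6.98, 15.3, 6.06, 0.772 and 0.59 CPM without. The 2 animals titled icKO were near 1 CPM in both libraries, and the fold of 0.91 (SE 0.18, edgeR adjusted p = 0.0274) was largest in control 3 and control 5, with differences of 1.20 and 1.30.

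All 10 genes tested of the peptidergic nociceptor list had a positive fold, with a median of 0.28, and Adcyap1 and Kit passed. The list is not confined to these neurons: it also holds Nefh, the neurofilament of large neurons, and Th, a C-low-threshold mechanoreceptor gene. Kit, the receptor of stem cell factor, held 120, 98.6, 117, 85.7 and 97.2 CPM with formalin and 93.6, 81.7, 73, 74.5 and 89.6 CPM without, higher in each animal (log2 fold 0.32, SE 0.07, edgeR adjusted p = 0.0415). Trpv1, the capsaicin and heat receptor channel, held 275, 277, 350, 180 and 197 CPM with formalin and 237, 178, 170, 141 and 164 CPM without. It was higher in all 5 animals, yet the size of the step varied and the fold of 0.50 (SE 0.12) had an edgeR adjusted p of 0.101. Gfra3, the artemin receptor, gave 0.36 (adjusted p = 0.143). The summed level of the list was 4820 to 5440 CPM with formalin and 3790 to 5270 CPM without, higher with formalin in each animal. Nefh, with its range given above, made up a large share of this sum.

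Sv2a, a glycoprotein of synaptic vesicles, held 63, 52.3, 53.7, 37.2 and 49.4 CPM with formalin and 49.5, 30.9, 39.2, 34.2 and 37.8 CPM without (log2 fold 0.41, SE 0.08, edgeR adjusted p = 0.018). All animals were higher, least icKO 2. In a list of 29 synaptic vesicle genes chosen after the values were seen, Sv2a and the vesicle membrane protein Nrsn1 passed, and 28 folds were positive (median 0.15). Ache, the enzyme that degrades acetylcholine, held 76.8, 64.7, 62.6, 48.3 and 70.1 CPM with formalin and 61.9, 52.1, 48.8, 41.4 and 52.2 CPM without (log2 fold 0.33, SE 0.06, edgeR adjusted p = 0.013). Slc29a4, a monoamine transporter, rose by 40.1% (log2 fold 0.49, SE 0.09, edgeR adjusted p = 0.0134). Both rose in all 5 animals.

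Of the enzymes that make and break cyclic AMP, Adcy2, an adenylyl cyclase, and Pde8b, a phosphodiesterase, rose, and the other 19 of 21 tested did not pass. Adcy2 held 43.3, 48.6, 47.5, 35.1 and 40.6 CPM with formalin and 40.6, 32.7, 35.6, 26.2 and 36.1 CPM without, and Pde8b held 31.5, 28.4, 30.2, 21.1 and 23.7 against 24.8, 23.2, 21.2, 16.3 and 20.3 CPM. Each animal was higher for both genes (log2 folds 0.33 and 0.35, edgeR adjusted p = 0.037 and 0.0264). The list was chosen after the values were seen. The other genes that rose were Ndn, Plekhh1, Pcdh17, Crtac1, Gpr26, Ern2 and B630019K06Rik. Ndn, a growth regulator of neurons, had a log2 fold of 0.31 and Pcdh17, a protocadherin of synaptic adhesion, one of 0.37. Ern2 lay at 0.962 to 1.75 CPM with formalin and 0.221 to 1.2 CPM without.

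**Figure D4:**
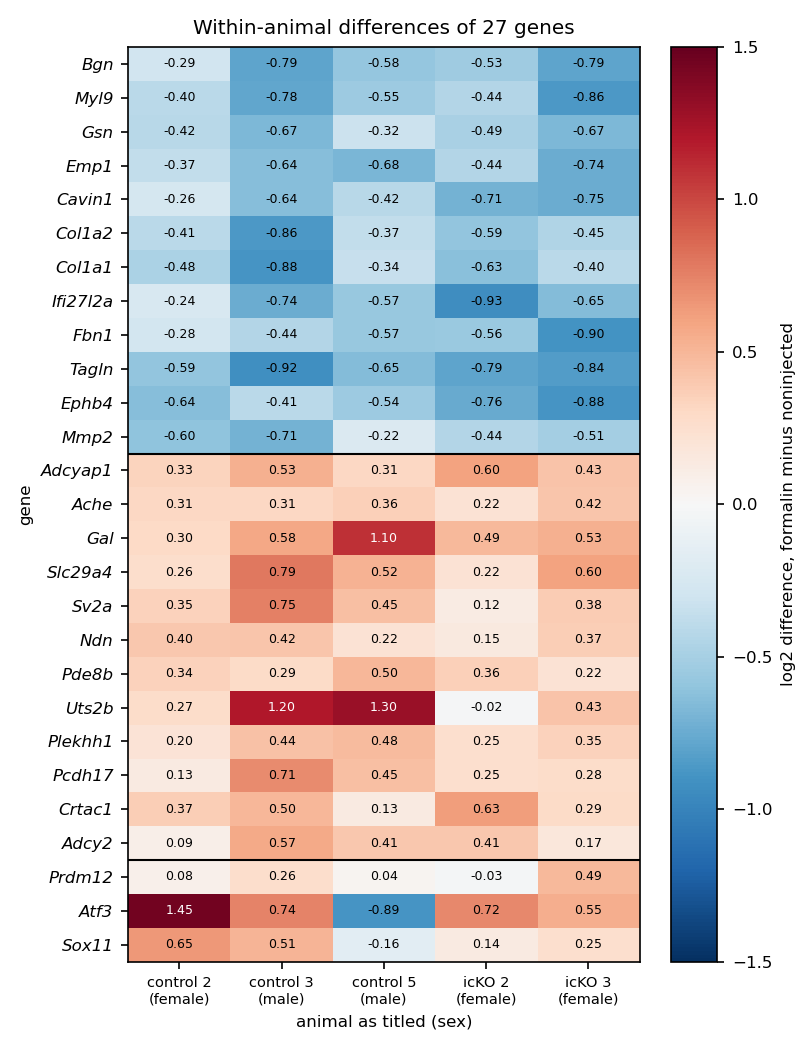
Log2 difference, formalin minus noninjected, within each of the 5 animals (columns) for the 12 genes of smallest p on each side and for Prdm12, Atf3 and Sox11 (rows), with the value in each cell and the colour scale in log2 units. All cells of the 12 lower genes are negative; among the 12 higher genes Uts2b in icKO 2 (−0.02) is the 1 negative cell, and Atf3 runs from −0.89 in control 5 to 1.45 in control 2.

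Other classes of sensory neuron genes were mostly above 0 without calls. Ion channel genes had 34 positive folds of 40 (median 0.14). Of the 40, 18 had an unadjusted p under 0.05, beside 14.2% of all tested genes, and none passed the adjusted threshold. Scn10a and Scn9a, the sodium channels Nav1.8 and Nav1.7, had folds of 0.17 and 0.13, and Trpa1, the irritant receptor that formalin itself opens, one of 0.22 (edgeR adjusted p = 0.289, 0.389 and 0.143). Hcn2, a pacemaker channel, came nearest at 0.31 (adjusted p = 0.0514) and was higher in all 5 animals. Opioid and other inhibitory receptor genes were positive in 22 of 25 (median 0.18), and none was called; the smallest p was that of the somatostatin receptor Sstr2, with a fold of 0.48 (adjusted p = 0.064). No member was called among non-peptidergic nociceptor (median 0.16), pruriceptor (0.13), C-low-threshold mechanoreceptor (0.15) and A-fibre (0.03) genes. Among 6 cold thermoreceptor genes Gpr26, an orphan receptor, rose (log2 fold 0.42, edgeR adjusted p = 0.0399). All 19 cholesterol synthesis genes had a positive fold, none was called, and their median was 0.14.

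The nerve injury markers did not pass. Atf3 held 21.4, 18.4, 11.2, 11.8 and 11.5 CPM with formalin and 7.49, 10.8, 21.1, 6.95 and 7.73 CPM without. It was higher with formalin in 4 animals, by 0.55 to 1.45 on the log2 scale, and lower by 0.89 in control 5, whose noninjected library was the highest of its group. The fold was 0.51 (SE 0.39, edgeR adjusted p = 0.645), and an exact two-sided sign-flip permutation test over the 5 pairs gave p = 0.312. Without control 5 the fold was 0.90 (SE 0.14) with an edgeR adjusted p of 0.014. The exact permutation test over the other 4 pairs gave p = 0.125, the smallest that 4 pairs allow. Of 17 alternative fits, the fit without control 5 was the 1 that called Atf3. In 15 it was uncalled with a positive fold, and in males alone the fold was −0.11. Sox11 held 16.6, 20.3, 13.3, 10.5 and 12.4 CPM with formalin and 10.4, 14.1, 15, 9.52 and 10.3 CPM without, with the same animal going the other way (log2 fold 0.29, SE 0.11, edgeR adjusted p = 0.249; exact permutation p = 0.188). The smallest p that 5 pairs allow in this permutation test is 0.0625.

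Across the 22 nerve injury and regeneration genes tested, Gal was the only call and 15 folds were positive (median 0.11). Gap43, a growth cone protein, was higher in all 5 animals by a small step (log2 fold 0.13, edgeR adjusted p = 0.277). Sprr1a, which is strongly induced by axotomy, stayed under 2 CPM in all 10 libraries, and Jun and Csf1 gave folds of 0.21 and −0.01. Prdm12 itself held 105, 93.2, 99.8, 73.7 and 115 CPM with formalin and 99.7, 77.7, 96.9, 75.1 and 81.9 CPM without. It was higher in 4 of 5 animals and did not pass (log2 fold 0.17, SE 0.07, edgeR adjusted p = 0.281; exact permutation p = 0.125).

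The 5 animals shared the direction of the called genes and differed in size. Over the 184 lower genes the median difference was −0.31, −0.64, −0.32, −0.37 and −0.56, in the order of animals used above. The 17 higher genes had medians of 0.30, 0.57, 0.45, 0.35 and 0.35 in the same order. These genes were chosen on the same libraries, so the medians describe them only. Control 3 had the largest differences on both sides. Its libraries were the shallowest of the 5 animals, with 11763893 and 13758401 counts, and the part of depth was not tested.

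Females and males were compared by an interaction fit of the same 10 libraries. The formalin effect differed between the 3 females and the 2 males for 7 of 16749 genes (0.0418%; edgeR adjusted p from 0.0047 to 0.0144). Chrna3 and Chrnb4, subunits of the ganglionic nicotinic acetylcholine receptor, were among the 6 with a higher fold in males (0.0358% of tested genes). Chrna3 held 69.7 and 64.6 CPM with formalin in control 3 and control 5 and 17.3 and 14.5 CPM without. In the females it held 54.1, 11.6 and 12.9 CPM with formalin and 37.9, 12.3 and 8.32 CPM without. Fitted in each sex alone, the log2 fold was 2.09 in males and 0.37 in females. The interaction fit gave a difference of −1.71 (female minus male, SE 0.18, edgeR adjusted p = 0.00479). The others were Lrguk, Cacna1e, a voltage-gated calcium channel, Atp2b4, a calcium pump, and Cartpt, the precursor of the CART peptides, with differences of −1.32, −1.26, −0.92 and −0.95.

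Cartpt held 59.4 and 53.9 CPM with formalin in the males against 25.2 and 20.3 CPM without, and 42.1, 15.3 and 15.8 against 33.1, 11.3 and 12.6 CPM in the females. C1qa, a chain of complement C1q made by macrophages, was the single gene with a higher fold in females (0.00597% of tested genes; difference 0.84, SE 0.12, edgeR adjusted p = 0.0144). It held 45.3 and 24 CPM with formalin and 77.4 and 41.5 CPM without in the males, and 37.3, 49.8 and 35.4 against 38.8, 47 and 31.9 CPM in the females. Both males are titled control and 2 of the 3 females are titled icKO, so sex and title cannot be fully told apart. Without control 5 the test, then with 1 male, called 1 gene, and without control 2 it called 12.

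In ganglia deposited under the knockout word, the same genes went mostly the other way. That comparison used 4 pairs (control 1, control 4, icKO 4 and icKO 5 by title; 1 female and 3 males), since the formalin library of icKO 1 held 2829 counts, and it shares no library with the 5 pairs above. Formalin alone called 0 of 17293 genes in those ganglia with edgeR, and 1629 had an unadjusted p under 0.05. Of the 184 genes that fell in intact ganglia 168 had the opposite sign (91.3%), with medians of −0.46 in intact and 0.26 in deleted ganglia. All 17 genes that rose had a negative fold there (medians 0.37 and −0.48). Over all 16645 genes with both folds the signs differed in 68.2%. The 184 and 17 were picked for being far from 0 in the intact animals, so their medians there are a description.

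The difference between the effects, tested over all genes, gave no call: 0 of 16857 (0%) with edgeR, the smallest adjusted p being 0.0871, and 3895 (23.1%) had an unadjusted p under 0.05. DESeq2 called 773, and without control 1, a pair of the deleted side, edgeR called 2656. For Bgn the fold was −0.60 in intact and 0.25 in deleted ganglia (difference −0.84, adjusted p = 0.0871), and for Adcy2 0.33 and −0.51 (difference 0.84, adjusted p = 0.0871). For Trpv1 it was 0.50 and −0.61 and for Gal 0.62 and −0.70 (adjusted p of the difference 0.0871 and 0.104). Fibroblast genes had medians of −0.53 and 0.41, and none of the 16 was negative in deleted ganglia. Peptidergic nociceptor genes had medians of 0.28 and −0.31. Skeletal muscle genes had a median of −0.52 in intact and 3.00 in deleted ganglia, and their part in the difference was not tested. Interferon response genes, with −0.12 and −0.19, and Schwann cell genes, with −0.27 and −0.03, lay below 0 in both.

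**Figure D5:**
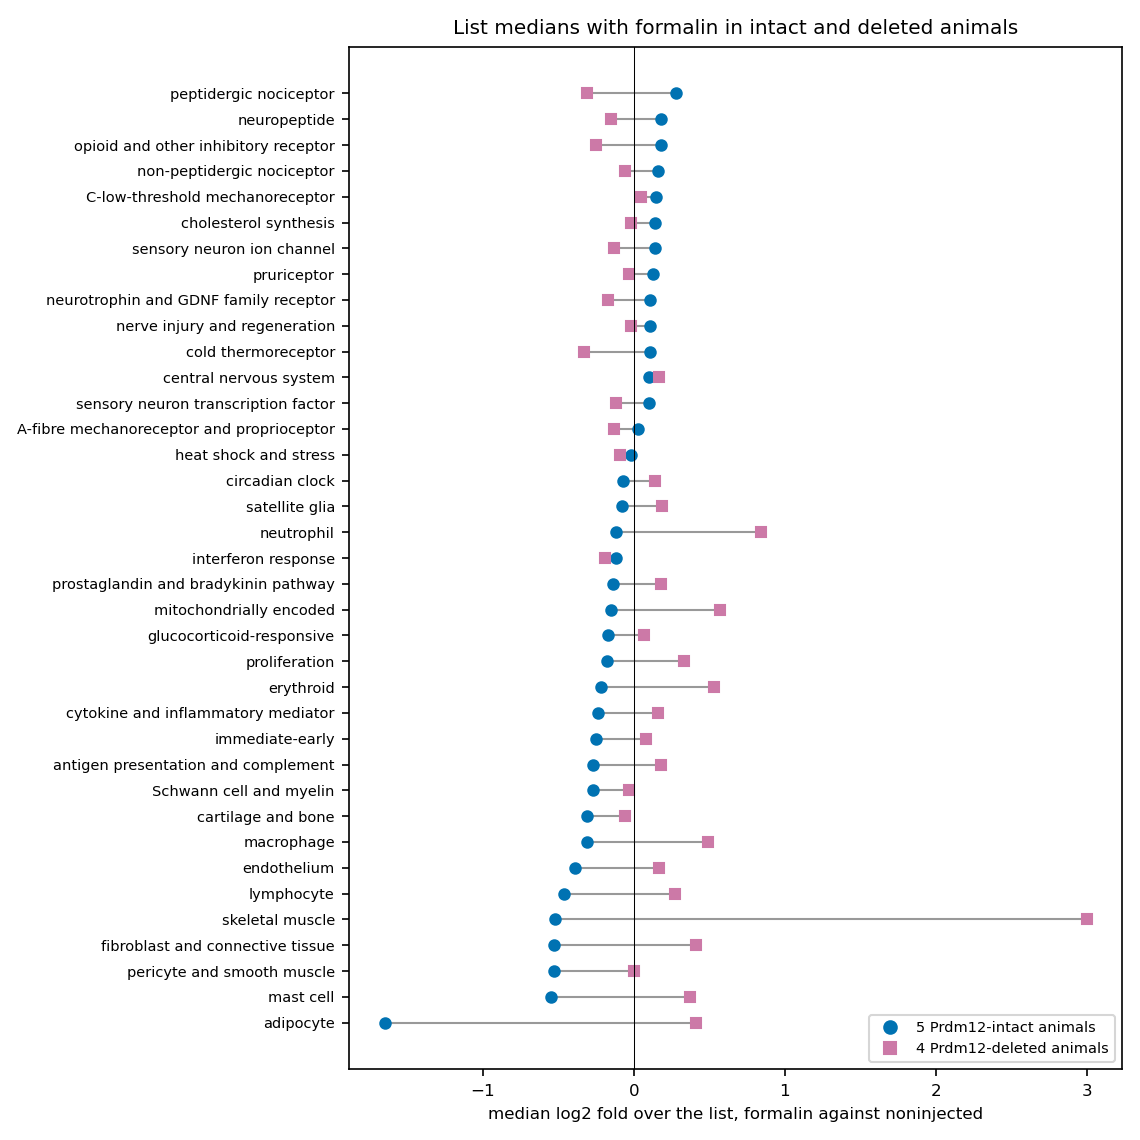
Median log2 fold of formalin against noninjected over each of 37 gene lists in the 5 Prdm12-intact animals (circles) and the 4 Prdm12-deleted animals (squares), joined by a line per list. Fibroblast genes lie at −0.53 and 0.41 and peptidergic nociceptor genes at 0.28 and −0.31, on opposite sides of 0; skeletal muscle genes reach 3.00 in the deleted animals, and the edgeR test of the difference over all 9 pairs called no gene (DESeq2 called 773, and edgeR without control 1 called 2656).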

How the data were processed

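Polyadenylated RNA of lumbar dorsal root ganglia was sequenced without strand marking. Raw read counts were deposited per sample for 55416 Ensembl IDs; per the submitters' processing notes the tools were bcl2fastq 2.20.0.422, STAR 2.7.8a and featureCounts 2.0.1, with the GRCm39 build. The annotation release and counting options, not given in the sources used here, leave genes with near-identical copies uncertain. A name table matched 52083 IDs (94%), which held 98.65% to 99.59% of the counts of each library. No coordinates of the files' build are printed; promoter windows are from RefSeq on GRCm38.p6. The mapping of libraries to the intact group follows the genotype word under which counts were deposited.

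Counts were tested with edgeR 4.0.16 in R 4.3.3 (robust quasi-likelihood F test, TMM scaling, filterByExpr by agent, animal as block), with Benjamini-Hochberg adjustment over all tested genes and a threshold of 0.05. Standard errors came from the fold and the F statistic. The sex difference was fitted as an interaction in the same 10 libraries, and the difference between intact and deleted ganglia over 18 libraries, leaving out the library titled icKO 1 formalin (2829 counts) and its partner. Single genes were also compared by exact sign-flip permutation of within-animal log2 differences (CPM + 0.5). Same-animal libraries deviated together: the correlation of deviations from group means was 0.16 to 0.49, and each of the 5 libraries correlated best with its own partner. Libraries of a group gave a chi-square per degree of freedom of 7.36 to 23.6 against sampling noise alone. The test was first tested on simulated data.

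The members, the lists and the tests were chosen with earlier results of these data known. Of 673 entries in the 37 main lists, 670 matched a gene. Named genes are Prdm12, Atf3, Sox11, the 12 called genes of smallest p in each direction (no predicted genes; mean log2 CPM at or above 1), up to 4 called members per list, otherwise the 2 of smallest p, and 5 per direction for the differences of effects; only those of the groups described are printed, with added well-known list members chosen after their values were seen. Lists are described by counts and medians, with no set test. Alternatives were RLE scaling, DESeq2 1.42.0, limma-voom (limma 3.58.1), no filter, other blocks, subsets of animals and, added after seeing the data, filterByExpr with the design and library totals as scaling. Results of a few list members are not reported here.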

Additional observations from a re-analysis of the deposited data

Results flagged for a closer look

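Of 130 groups of 5 libraries examined, 7 held a library set apart from the other 4. The gap required is one that chance gives in about 1 in 20 groups, so about this many are expected by chance alone. Summed cold thermoreceptor genes were 189 CPM in the formalin library of control 5 and 147 to 158 CPM in the others. Gsn was 476 CPM in the formalin library of icKO 2 against 325 to 366 CPM. Summed satellite glia genes were 7460 CPM in the noninjected library of control 3 against 5740 to 6170 CPM, and summed mitochondrially encoded genes were 66900 CPM there against 42900 to 49400 CPM. Atf3 was 21.1 CPM in the noninjected library of control 5 against 6.95 to 10.8 CPM. Tagln was 11.7 CPM in the noninjected library of icKO 2 against 5.88 to 7.31 CPM. Slc29a4 was 27.5 CPM in the noninjected library of control 2 against 19.1 to 20.8 CPM.

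The formalin effect differed between females and males, by the interaction test in edgeR, for 7 genes (Chrna3, Chrnb4, Cartpt, Lrguk, Cacna1e, Atp2b4 and C1qa).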

How the results depend on the processing

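The comparison rests on 5 pairs of libraries. The main counts were 17 higher and 184 lower. DESeq2 called 43 and 230, no filter 205 and 664, RLE scaling 19 and 196. Without the replicate block, with the title number as replicate block (which merges animals), with the animal as a random effect in limma-voom, and with all usable pairs in one fit, the counts were 0 and 0. Leaving out each animal gave 1 to 49 higher and 25 to 296 lower. The 3 animals titled control gave 33 and 92, females alone 5 and 30, males alone 65 and 109 (fewer samples). The 2 alternatives added after seeing the data gave 19 and 186 (design filter) and 21 and 243 (library totals). The cause of these shifts was not tested. For the difference between intact and deleted ganglia (0 genes), DESeq2 gave 773, no filter 2322, and leaving out each animal 0 to 2656, the highest without control 1. For the sex difference (7 genes), DESeq2 gave 15, no filter 125, no replicate block 0, and leaving out each animal 1 to 12. Atf3 had a log2 fold of −0.11 in males alone and 0.90 without control 5. Single named genes kept sign and call in 295 of 459 refits and lost the call in 162. The medians of A-fibre, transcription factor, central nervous system, adipocyte, erythroid, neutrophil and heat shock genes changed sign in some settings.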
